A study of Mus musculus with 18 samples.

Results

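The 6 genes described here are those of hemoglobin and of red cell development that were looked up by name in a liver RNA-sequencing table of 32285 gene rows: the adult α-globin genes Hba-a1 and Hba-a2, the adult β-globin genes Hbb-bs and Hbb-bt, the heme enzyme gene Alas2 and the membrane transporter gene Slc4a1. All 6 rows were found. The 18 libraries came from mouse liver, 6 each from offspring groups called Space and Ground and from BDF1 controls, and all carry the strain label B6D2F1 and the genotype label wild-type. The Space and Ground offspring were 10 weeks old and descended from germline stem (GS) cells, cultured spermatogonial stem cells of DBA/2 origin that carry an EGFP transgene, which spent 6 months in frozen storage, in orbit on the International Space Station or on Earth, and were thawed and transplanted into testes of W mice, whose germ cells are deficient. The recipients were mated with C57BL/6 females. The BDF1 controls were born from natural mating, and their age is not given in the sources used here. Animals of both sexes were used and the labels give no sex for a single library, so libraries were also split by Xist, the RNA of the inactive X chromosome: in each group 3 libraries (replicates 1 to 3) were Xist-low and 3 (replicates 4 to 6) were Xist-high.

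Hemoglobin carries oxygen in red cells as a tetramer of α- and β-globin chains, each holding a heme. In the adult mouse, red cell precursors divide and mature in bone marrow and spleen, fill with globin mRNA, lose the nucleus and enter the blood as reticulocytes, which keep globin mRNA for a short time. The liver makes blood in the fetus, while in the adult it makes heme mainly for cytochromes, receives a large share of the circulation and clears spent red cells through its macrophages. Alas2 encodes the erythroid form of 5-aminolevulinate synthase, the enzyme that starts heme synthesis, and Alas1 encodes the form used in all cells, hepatocytes included. Slc4a1 encodes band 3, the anion exchanger of the red cell membrane. In a whole-tissue library, fewer cells of a type and less RNA per cell cannot be told apart.

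Total counts per library ran from 15407450 to 20562351, and 12847 genes passed the filter on low counts, among them 5 of the 6 members (Slc4a1 did not pass). Levels are given as CPM, counts relative to library size after TMM scaling, and 3 counts, taken as the lowest countable level, correspond to 0.134 to 0.236 CPM depending on the library. The TMM factors were 0.705 to 0.960 in the Xist-high Space and Ground libraries and 1.07 to 1.17 in the Xist-high BDF1 libraries. Alb, the most abundant hepatocyte gene of the lists examined, ran from 38351 to 341539 CPM, so the libraries were liver by their leading transcripts. Xist-low libraries held 0 to 187 Xist counts and 1822 to 2482 counts over 4 Y-linked genes, and Xist-high libraries held 12218 to 21557 Xist counts and 0 to 26 Y-linked counts.

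The globin genes lie in pairs of near-identical copies. In the mm10 build with the GENCODE M21 annotation, Hba-a1 lies at chr11:32283511-32284465 and Hba-a2 at chr11:32296489-32297298 on the plus strand, and Hbb-bs lies at chr7:103826534-103828096 and Hbb-bt at chr7:103812524-103813996 on the minus strand. The coding sequences of Hba-a1 and Hba-a2 differed at 1 of 429 bases and those of Hbb-bs and Hbb-bt at 1 of 444. Of all 100-base stretches of the transcript, 56.5% in Hba-a1 and 74.5% in Hba-a2 occurred exactly in the other copy, against 62.6% in Hbb-bs and 54.8% in Hbb-bt, so the split of reads within a pair is uncertain, whereas no such stretch was shared between the α and β genes. C57BL/6 mice carry the β-globin haplotype that holds Hbb-bs and Hbb-bt, and DBA/2 mice carry another haplotype whose genes are named Hbb-b1 and Hbb-b2, and the counts are those assigned to the C57BL/6 genes. How far reads of the other haplotype were counted there was not tested. Alas2 lies at chrX:150547375-150570638 on the plus strand and Slc4a1 at chr11:102348824-102366203 on the minus strand.

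The upstream sequences of the members that moved together or apart are shown to set the members side by side. RefSeq (GRCm38.p6) gave the 250 bases before its own annotated start for 5 of the 6 members. These starts lie inside the GENCODE spans given above, so each window runs into the span of its gene as placed there. Capitals mark matches, on either strand, to GATAA (the core read by GATA factors), CACCC (read by Klf1 and related factors), CCAAT and ATATAA (the usual letters of a TATA box), so a match on the opposite strand appears as its reverse complement.
Hba-a1: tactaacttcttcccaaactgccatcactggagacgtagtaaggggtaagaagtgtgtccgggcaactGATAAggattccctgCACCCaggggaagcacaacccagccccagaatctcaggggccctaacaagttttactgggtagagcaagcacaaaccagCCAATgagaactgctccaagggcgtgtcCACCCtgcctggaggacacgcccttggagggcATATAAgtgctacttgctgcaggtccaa
Hba-a2: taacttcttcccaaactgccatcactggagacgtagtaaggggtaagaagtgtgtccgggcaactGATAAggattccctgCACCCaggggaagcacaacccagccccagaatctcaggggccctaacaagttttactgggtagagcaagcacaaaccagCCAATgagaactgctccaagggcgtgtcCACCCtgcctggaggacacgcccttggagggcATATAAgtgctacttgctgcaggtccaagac
Hbb-bs: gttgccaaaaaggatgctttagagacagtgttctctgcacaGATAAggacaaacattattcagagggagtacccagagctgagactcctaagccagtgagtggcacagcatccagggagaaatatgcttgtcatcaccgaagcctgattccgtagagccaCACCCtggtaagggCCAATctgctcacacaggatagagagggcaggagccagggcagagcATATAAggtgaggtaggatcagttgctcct
Hbb-bt: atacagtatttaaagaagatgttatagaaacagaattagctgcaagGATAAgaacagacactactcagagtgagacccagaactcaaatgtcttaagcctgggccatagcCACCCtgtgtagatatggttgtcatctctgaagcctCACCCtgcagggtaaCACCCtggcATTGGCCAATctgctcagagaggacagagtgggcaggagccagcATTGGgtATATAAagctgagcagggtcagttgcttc
Alas2: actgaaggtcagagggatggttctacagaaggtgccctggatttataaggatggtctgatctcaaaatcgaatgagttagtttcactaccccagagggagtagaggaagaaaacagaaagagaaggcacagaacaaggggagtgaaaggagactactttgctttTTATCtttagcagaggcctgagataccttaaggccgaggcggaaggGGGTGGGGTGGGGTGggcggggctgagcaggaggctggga
These windows are chr11:32283422-32283671 for Hba-a1 and chr11:32296242-32296491 for Hba-a2 on the plus strand, chr7:103827929-103828178 for Hbb-bs and chr7:103813924-103814173 for Hbb-bt on the minus strand, and chrX:150547167-150547416 for Alas2 on the plus strand. Hba-a1 and Hba-a2 shared 97.6% of aligned bases upstream and Hbb-bs and Hbb-bt 69.3%. All 4 of these motifs occurred in each of the 4 globin windows, and the Alas2 window held 1 GATAA and 3 CACCC matches but neither of the other motifs. Over 32851 promoter windows of the same length, 22.6% held GATAA, 52.0% CACCC, 33.8% CCAAT and 9.10% ATATAA, so CACCC in particular is common. A match describes the letters of the window and not a bound site.

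Per kilobase of exon Hbb-bs was the most abundant globin in every library, and its spread within a group was wide. In the Space livers it stood at 103, 75.9 and 29.3 CPM in the Xist-low libraries (replicates 1 to 3) and at 425, 132 and 111 CPM in the Xist-high libraries (replicates 4 to 6). In the Ground livers the same order gave 87.0, 33.7 and 39.3 CPM and then 195, 301 and 42.2 CPM. In the BDF1 livers it gave 96.8, 95.5 and 51.2 CPM and then 15.9, 12.5 and 39.0 CPM. Thus the highest libraries were Xist-high offspring (Space replicate 4 and Ground replicate 5), the lowest were Xist-high controls, and the 3 groups as a whole overlapped. The group means were 146 ± 141 CPM in Space, 116 ± 109 in Ground and 51.8 ± 37.2 in BDF1 (SD, n = 6 each).

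Hba-a1, the more highly counted α-globin copy, was also highest in Space replicate 4 and Ground replicate 5. It stood at 44.2, 32.2, 12.8, 174, 64.3 and 55.4 CPM in Space replicates 1 to 6. In Ground replicates 1 to 6 it stood at 40.1, 17.8, 17.7, 83.4, 137 and 19.5 CPM. In BDF1 replicates 1 to 6 it stood at 39.0, 39.3, 24.5, 7.13, 6.71 and 21.2 CPM. As for Hbb-bs, the lowest values were those of BDF1 replicates 4 and 5. The other copy of each pair had fewer counts, with Hba-a2 between 0.743 and 19.8 CPM and Hbb-bt between 0.716 and 36.2 CPM over the 18 libraries.

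**Figure D1:**
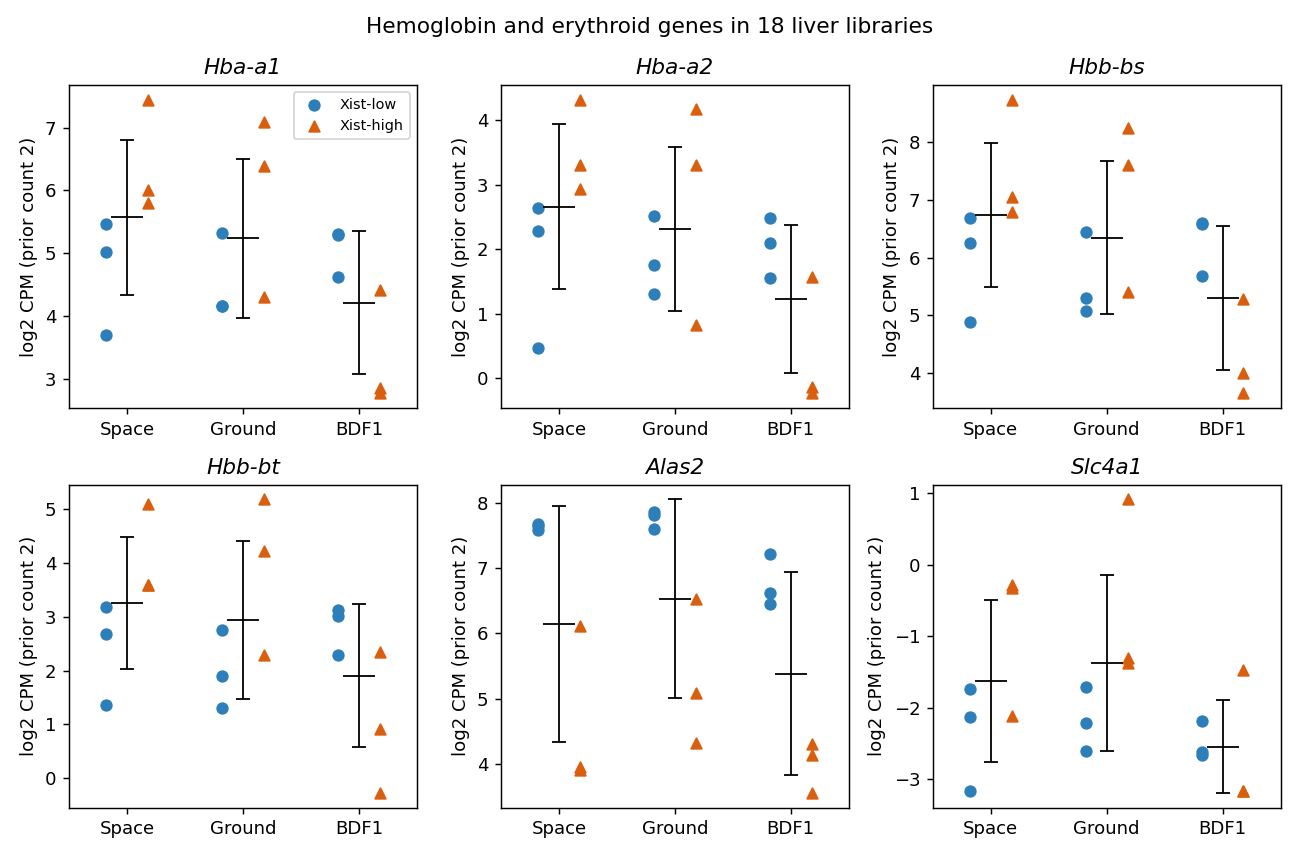
Level of each of the 6 genes in 18 liver libraries, as log2 CPM with a prior count of 2 (vertical axis), by group (horizontal axis). Circles are Xist-low and triangles Xist-high libraries (3 each per group), and bars give the group mean ± SD (n = 6). The globin triangles lie above the circles in Space, spread around or above them in Ground and lie level with or below them in BDF1, whereas every Alas2 circle lies above the Alas2 triangles of its own group.

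Across whole groups none of the 5 tested members passed the test. Between Space and Ground, the comparison of orbital with terrestrial storage, edgeR's quasi-likelihood test with Benjamini-Hochberg adjustment called 0 of the 5, where 0 of the 12847 genes (0%) were called, 1186 had an unadjusted p under 0.05 and DESeq2 called 30. The Space minus Ground difference was 0.33 ± 0.667 for Hbb-bs on the log2 scale (SE, edgeR adjusted p = 0.922) and -0.20 ± 0.774 for Alas2 (edgeR adjusted p = 0.964). Against BDF1, a comparison that addresses passage of the cells through culture, freezing and transplantation as well as storage, 0 of the 5 passed in Space (background 3.8% of genes) and 0 of the 5 in Ground (background 3.81%). The Space minus BDF1 differences of the globins were 1.38 to 1.54 on the log2 scale (edgeR adjusted p = 0.181 to 0.278), and those of Ground minus BDF1 were 1.17 to 1.32 (edgeR adjusted p = 0.275 to 0.341). These last comparisons share the same 6 control libraries. The medians over all genes tested were 0.00046 and 0.02. Scaling by total counts instead of TMM moved the median of all genes against BDF1 by -0.26 in each, and under it no member passed either.

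Group differences were also fitted within each Xist class. Globin genes were called among Xist-high libraries and not among Xist-low libraries. The test of the difference between the classes, given with the Xist-low values, passed for no member in the main edgeR fit. Among Xist-high libraries all 4 globin genes were higher in Space than in BDF1, and all 4 were higher in Ground than in BDF1, so that 4 of the 5 tested members were called in each comparison. The background was 11.9% of 13356 genes called for Space (6.43% called higher) and 15.2% for Ground (7.86% called higher). Hbb-bs was 9.88-fold higher in Space (log2 difference 3.30 ± 0.720, edgeR adjusted p = 0.00854) and 7.97-fold higher in Ground (2.99 ± 0.711, edgeR adjusted p = 0.0104). For Hba-a1 the log2 differences were 3.06 ± 0.680 (edgeR adjusted p = 0.00956) and 2.77 ± 0.674 (edgeR adjusted p = 0.0116). Those of Hba-a2 and Hbb-bt lay between 2.74 and 3.06, with edgeR adjusted p from 0.0117 to 0.0198. The 3 Xist-high Space libraries lay above all 3 Xist-high BDF1 libraries for each globin gene. The Ground libraries overlapped them for 3 of the 4 genes, because Ground replicate 6 (19.5 CPM of Hba-a1) stood below BDF1 replicate 6 (21.2 CPM).

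The calls among Xist-high libraries depended on the fit and on single livers. When the Xist-high libraries were fitted alone, only 2 members passed in Space (Hbb-bs and Hba-a1, background 4.39%) and 1 in Ground (Hbb-bs, background 6.89%). Without BDF1 replicate 5, the lowest control, 0 members were called in either comparison (Hbb-bs 3.01 in Space, edgeR adjusted p = 0.0508, and 2.72 in Ground, adjusted p = 0.0531). Without BDF1 replicate 4 only Hbb-bs was called, 1 member in each comparison. Without Space replicate 4 the Space calls fell to 2 (Hba-a1 and Hbb-bs), and without Ground replicate 5 the Ground calls fell to 1 (Hbb-bs, 2.39). The direction was the same in each of the 18 fits that left out a library.

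Among Xist-low libraries no member was called in Space (background 4.64% of genes) or in Ground (background 1.92%). The globin differences from BDF1 were -0.28 to -0.04 in Space and -0.76 to -0.15 in Ground on the log2 scale. The test of whether the group difference itself differed between the classes called 0 of the 5 members for Space (background 3.19%) and 0 of the 5 for Ground (background 2.74%). For Hbb-bs that interaction was 3.53 ± 0.960 in Space (edgeR adjusted p = 0.0554) and 3.60 ± 0.962 in Ground (edgeR adjusted p = 0.0565). DESeq2 called 2 and 3 of the members in these tests, where its backgrounds were 6.36% and 5.86%. Without the filter on low counts edgeR called 3 and 3 (backgrounds 2.28% and 2.08%), and with total counts it called 3 in Ground (background 11.2%). Between Space and Ground 0 of the 5 interactions were called (background 0%, 1038 genes with an unadjusted p under 0.05, 30 genes called by DESeq2).

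**Figure D2:**
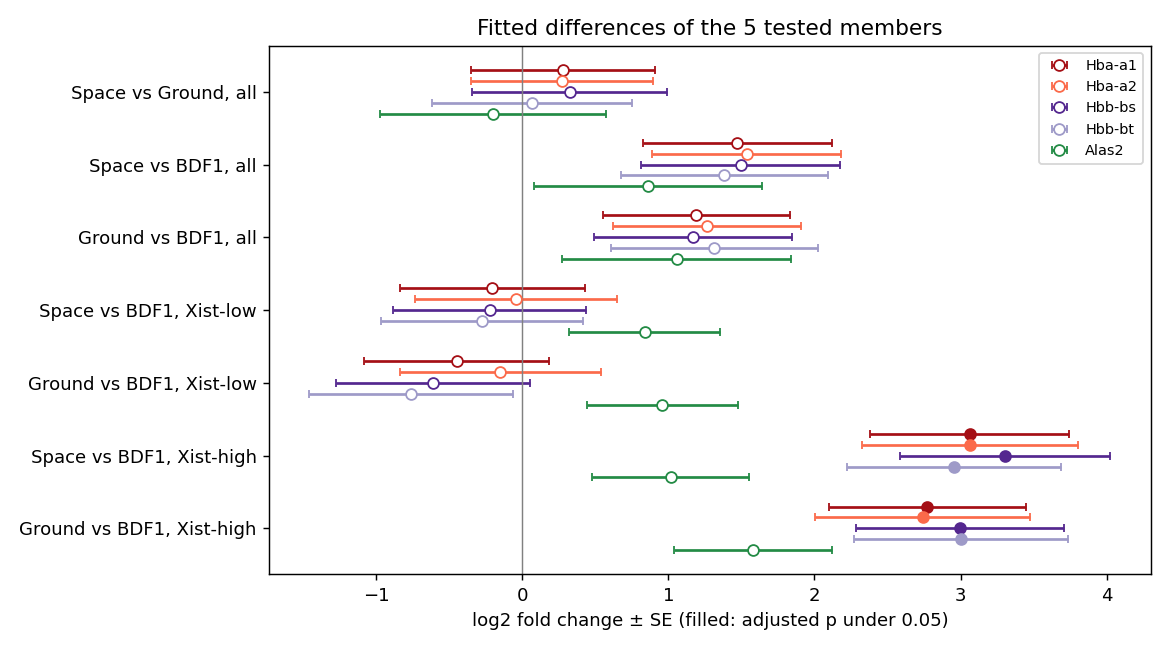
Fitted log2 fold changes with SE (horizontal axis) of the 5 tested members in 7 comparisons (rows), over all libraries or within an Xist class. Filled circles have an edgeR adjusted p under 0.05. The 8 filled circles are the globin genes among Xist-high libraries, between 2.74 and 3.30.

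The fitted class differences of Hbb-bs were positive in BDF1 and negative in Space and Ground, and did not pass in any group. Xist-low minus Xist-high, Hbb-bs differed by 1.85 ± 0.685 on the log2 scale in BDF1, by -1.68 ± 0.673 in Space and by -1.75 ± 0.676 in Ground (edgeR adjusted p = 0.0807, 0.0866 and 0.0832). Only Hbb-bt in Ground was called among the globins in these within-group contrasts (-2.23 ± 0.694, edgeR adjusted p = 0.0343, background 18.3%). Averaged over the groups, the globin class differences were -0.94 to -0.63 on the log2 scale, with edgeR adjusted p from 0.221 to 0.422.

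The 4 globin genes rose and fell together from library to library. Over the 18 libraries log2 Hba-a1 followed log2 Hbb-bs with Pearson's r = 0.996 and Spearman's rho = 0.981 (permutation p = 1e-05 for each, the smallest that 100000 permutations can give, adjusted p = 6e-05 over 18 relations). Without the 2 libraries farthest from the median of Hbb-bs, r was 0.994, and within the Xist-low and Xist-high libraries it was 0.990 and 0.998 (n = 9 each, permutation p = 5e-05 and 2e-05). The genes share a library and its scaling, and these relations are across libraries of different groups. The ratio of β- to α-globin counts stayed between 1.76 and 2.44 (2.12 ± 0.203, SD, n = 18), while the summed globin level ran from 20.7 to 653 CPM. Hba-a1 took 84.4 to 92.2% of the α-globin counts and Hbb-bs 88.7 to 94.6% of the β-globin counts. Per kilobase of exon, Hbb-bs stood at 136 ± 139 CPM, Hba-a1 at 57.2 ± 55.3, Hbb-bt at 14.0 ± 14.5 and Hba-a2 at 8.89 ± 8.17 (SD, n = 18), with the copies of a pair uncertain as above.

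Globin mRNA was a small share of each library. In Space replicate 4, the highest, the 4 genes took 0.0492% of all counts (95% exact binomial interval 0.0481 to 0.0503%), and in BDF1 replicate 5, the lowest, 0.00243% (0.00221 to 0.00266%). By this raw share the Xist-high libraries held 0.0167 to 0.0492% in Space, 0.00480 to 0.0374% in Ground and 0.00243 to 0.00727% in BDF1. Here too Ground replicate 6 fell inside the control range. The intervals cover counting error only.

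Alas2 did not follow the globins. In the Xist-low libraries it stood at 201, 206 and 192 CPM in Space, at 226, 234 and 195 CPM in Ground and at 150, 87.5 and 98.7 CPM in BDF1. In the Xist-high libraries it stood at 69.1, 15.4 and 14.9 CPM in Space, at 19.8, 92.0 and 33.7 CPM in Ground and at 17.4, 11.6 and 19.7 CPM in BDF1. Within each group all 3 Xist-low libraries were higher than all 3 Xist-high libraries, and among the Xist-low libraries the 3 BDF1 livers were lower than the 6 offspring livers.

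Alas2 was the only one of the 5 tested members called between the Xist classes, where 35.9% of the 12847 genes were called and 17.7% were called higher in Xist-low. Its difference, Xist-low minus Xist-high, was 2.52 ± 0.311 on the log2 scale or 5.72-fold (edgeR adjusted p = 7.15e-06). The difference held in each group, at 2.79 ± 0.556 in BDF1, 2.61 ± 0.549 in Space and 2.16 ± 0.538 in Ground (edgeR adjusted p = 0.00299, 0.00308 and 0.00982, backgrounds 14.6%, 21.9% and 18.3%), and its size did not pass a test of difference between groups (interaction 0.18 in Space and 0.62 in Ground). Alas2 stayed called with each of the 18 libraries left out (2.41 to 2.81). Alas2 is X-linked, and its higher level was in the class with little Xist. Against BDF1 its differences over all libraries, 0.86 ± 0.780 in Space and 1.06 ± 0.782 in Ground, did not pass (edgeR adjusted p = 0.579 and 0.473). When the Xist-low libraries were fitted alone, Alas2 was 0.83 higher in Space and 0.96 higher in Ground and passed in each (edgeR adjusted p = 0.0137 and 0.0127, backgrounds 8.56% and 4.4%), whereas the fit of all 18 libraries gave 0.84 and 0.96 with adjusted p = 0.402 and 0.381.

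**Figure D3:**
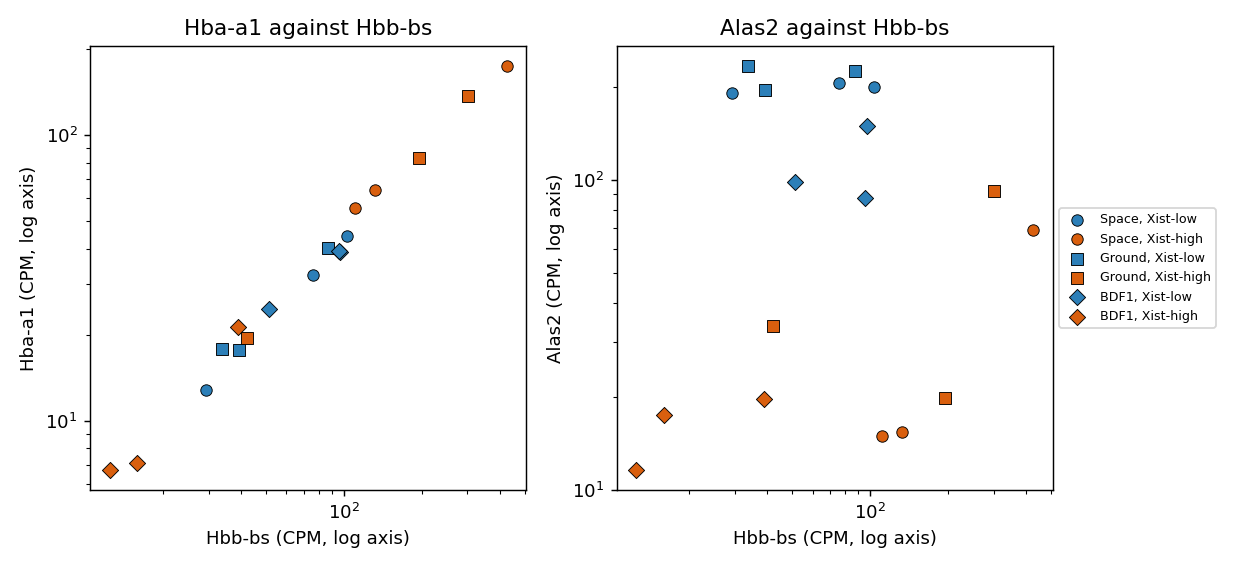
Hba-a1 (left) and Alas2 (right) against Hbb-bs in CPM, all axes logarithmic, 1 point per library, with colour for the Xist class and shape for the group. Hba-a1 follows Hbb-bs along 1 line (r = 0.996), while Alas2 is higher in the Xist-low than in the Xist-high libraries of each group.

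Since Alas2 was split by class within each group, with 1 overlap across groups (Ground replicate 5 at 92.0 CPM above BDF1 replicate 2 at 87.5), its relation to Hbb-bs was taken within each class. Pearson's r of the log2 levels was -0.26 in Xist-low libraries (rho = -0.20, permutation p = 0.493 and 0.617) and 0.66 in Xist-high libraries (rho = 0.68, permutation p = 0.0553 and 0.0502, n = 9 each). After adjustment over 18 relations, the p for r was 0.591 and 0.0765, so neither passed. The relation of Alas2 to Slc4a1, a gene of few counts, passed in Xist-high libraries for r (0.763, adjusted permutation p = 0.0257). It did not pass for rho (0.695, adjusted permutation p = 0.0689). Without the 2 libraries farthest from the median of Alas2, that r was 0.364. Alas2 counts ran from 0.0645 to 4.19 per globin count, a far wider range than that of the β to α ratio. Ground replicate 2, for example, had the highest Alas2 level (234 CPM) with 33.7 CPM of Hbb-bs, and Space replicate 6 had 14.9 CPM of Alas2 with 111 CPM of Hbb-bs.

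Few of the other genes of heme synthesis were called. Of 9 heme synthesis genes, all tested, none was called between whole groups, and 2 (Alas2 and Cpox, coproporphyrinogen oxidase) were called higher in Xist-low libraries, beside 17.7% of all genes tested. The Cpox difference was 0.21 ± 0.0758 on the log2 scale (edgeR adjusted p = 0.0384) and passed in 12 of the 18 fits that left out a library, and the median of the 9 genes was 0.14 beside -0.01 over all genes. Alad, the next enzyme of the pathway and the most abundant of the 9, ran from 157 to 498 CPM. Alas1 stood at 287 to 357 CPM in Xist-low and 30.2 to 126 CPM in Xist-high Space libraries, at 143 to 298 and 30.2 to 441 CPM in Ground, and at 42.7 to 78.4 and 93.4 to 195 CPM in BDF1. Its Xist-low minus Xist-high difference was 2.30 ± 0.688 on the log2 scale in Space, where it was called (edgeR adjusted p = 0.0245, 14 of 18 fits without a library), 0.23 ± 0.654 in Ground and -1.35 ± 0.668 in BDF1 (edgeR adjusted p = 0.859 and 0.194). Its interaction of group and class, the only one called among the 9 genes (background 3.19%), passed for Space (-3.65 ± 0.958, edgeR adjusted p = 0.0481), though in 5 of the 18 fits without a library, and not for Ground (-1.58 ± 0.933, edgeR adjusted p = 0.415), and averaged over the groups the class difference of Alas1 was 0.37 ± 0.556 (edgeR adjusted p = 0.638). Per kilobase of exon, Alas2 made up 59.1 to 87.4% of the summed Alas1 and Alas2 level in Xist-low libraries and 15.6 to 66.5% in Xist-high libraries, the lowest being BDF1 replicate 5.

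Slc4a1 was nearly undetected. Its counts were 2, 3, 0, 9, 2 and 12 in Space replicates 1 to 6, 4, 1, 2, 5, 27 and 4 in Ground and 1, 2, 1, 0, 0 and 5 in BDF1, 80 counts in all. The Xist-low libraries held 16 of these counts and the Xist-high libraries 64, of which Ground replicate 5 alone gave 27. Without a filter on low counts the class difference, Xist-low minus Xist-high, was -1.96 ± 0.649 on the log2 scale (edgeR adjusted p = 0.0326, background 20.8%), and no group difference of Slc4a1 passed. Log2 Slc4a1 followed log2 Hbb-bs over the 18 libraries (r = 0.766, rho = 0.733, permutation p = 0.00014 and 0.00081, adjusted p = 0.00028 and 0.00182). Within classes r was 0.612 in Xist-low libraries (permutation p = 0.0842) and 0.823 in Xist-high libraries (permutation p = 0.00667). Without the 2 libraries of each set farthest from its median of Hbb-bs, r was 0.698 over all libraries. In Xist-low and Xist-high libraries it was then 0.186 and 0.573, so the relation within a class depends in part on those libraries.

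Other red cell genes were sparse as well. Of 16 red cell membrane genes, 12 had at most 15 counts in every library and 6 at most 3, and the list's summed level, which ran from 85.8 to 165 CPM, was mostly Epb41 (70.2 to 143 CPM), a cytoskeletal gene used in many tissues. None of the 4 members that passed the filter was called between groups, while Gypc (glycophorin C) was called lower and Icam4 higher in Xist-low libraries (-0.53 and 1.18 on the log2 scale, beside 18.2% and 17.7% of all genes called lower and higher). The 6 embryonic and minor globin genes in the table had at most 2 counts in any library.

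**Figure D4:**
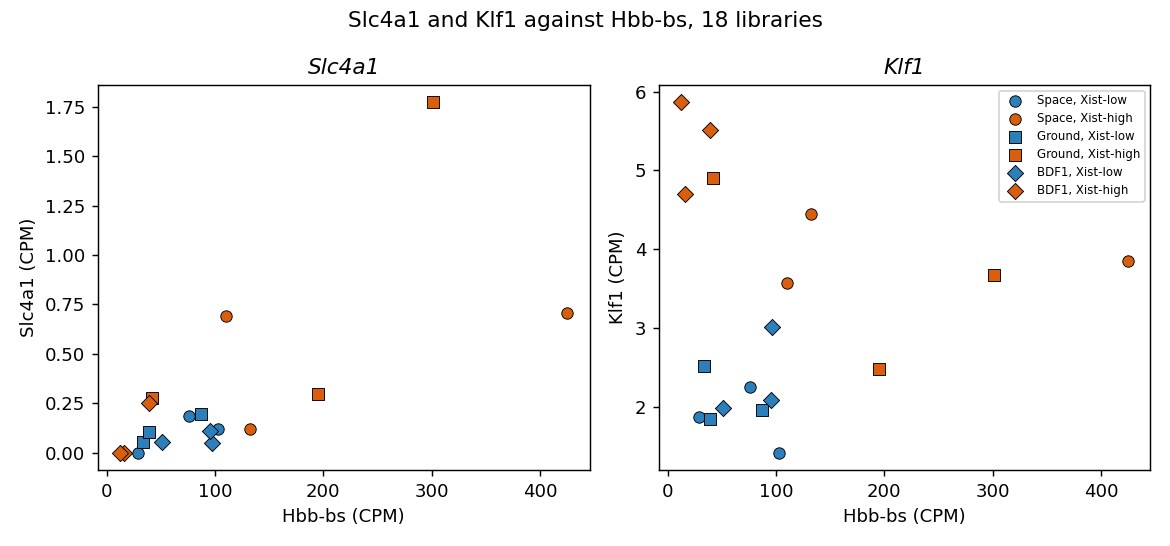
Slc4a1 (left) and Klf1 (right) in CPM on the vertical axes against Hbb-bs in CPM on the horizontal axes, all linear, 1 point per library, with colour for the Xist class and shape for the group. The highest Slc4a1 level (1.77 CPM) is that of Ground replicate 5, and the highest Klf1 level (5.86 CPM) is that of BDF1 replicate 5, the library with the lowest Hbb-bs (12.5 CPM).

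Among 11725 genes, those whose log2 CPM was most like that of Hbb-bs over the 18 libraries, beyond the globins themselves, included Pvt1 (Pearson's r = 0.844), Zc3h12a (0.810), the lipid droplet coat gene Plin2 (0.798) and Dip2b (0.791). For Alas2 the most like genes were Mup21 (a major urinary protein, 0.971), Slco1a1 (an organic anion transporter of hepatocytes, 0.963), Dnajb9 (0.952), Cmah (0.944) and Slc45a3 (0.944), whereas Hbb-bs ranked 4931 (0.126). For Slc4a1 they included Chmp1b (0.860), Slc41a3 (0.847), Slc39a14 (0.836) and Glmp (0.833). Genes that differ between the Xist classes share that split, which these correlations include.

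Genes of red cell precursors were unequal in level. Gata1, the erythroid master regulator, had at most 2 counts in a library and 4 in all, and Gfi1b at most 1, whereas the erythroid factor gene Klf1 had 24 to 131 counts in every library. Of 11 precursor genes 9 were tested, none was called between whole groups, and 3 were called lower in Xist-low libraries (18.2% of all genes tested were called lower). These were Klf1 (-1.03 ± 0.145 on the log2 scale), the erythropoietin receptor gene Epor (-0.97 ± 0.260) and Nfe2 (-2.09 ± 0.516), with edgeR adjusted p = 2.91e-05, 0.00752 and 0.00417. Nfe2 stood at 1.34, 7.92 and 3.56 CPM in the Xist-high BDF1 replicates 4 to 6, and 177 of its 275 counts there came from replicate 5. Its differences from BDF1 among Xist-high libraries were called in the fit of all libraries (-2.08 in Space and -2.63 in Ground), and passed in 6 and 17 of the 18 fits without a library. Without BDF1 replicate 5 they were -1.27 and -1.81 and did not pass (edgeR adjusted p = 0.258 and 0.105). Klf1 stood at 4.70 to 5.86 CPM in the Xist-high BDF1, 3.56 to 4.44 in the Xist-high Space and 2.48 to 4.90 in the Xist-high Ground libraries, and its differences from BDF1 of -0.44 ± 0.245 and -0.55 ± 0.246 on the log2 scale did not pass (edgeR adjusted p = 0.248 and 0.143). The summed level of the precursor list, mostly Zfpm1 (44.5 to 91.0 CPM), ran from 77.9 to 115 CPM in BDF1, 74.6 to 121 in Ground and 75.7 to 112 in Space. The part of red cell precursors in the globin levels was not tested.

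Genes of late red cell stages and of erythroid iron use moved singly. Of 7 tested late-stage genes (11 in the table), 1 was called in each comparison with BDF1 (backgrounds 3.8% and 3.81%). This was Tent5c, a poly(A) polymerase gene also used in other cells, higher by 1.01 ± 0.204 in Space and by 0.91 ± 0.203 in Ground (log2, edgeR adjusted p = 0.0110 and 0.0243). The Ground call was lost without BDF1 replicate 4, 5 or 6. Car2 and Mkrn1 were called lower in Xist-low libraries (18.2% of all genes). The list's medians were 0.14 and 0.17 against BDF1, and its most abundant gene was Bnip3l (43.7 to 55.1 CPM). Among Xist-high libraries Car1 was called lower in Ground (-1.14), whereas Car2 was called higher in both offspring groups and Car1 in Space among Xist-low libraries (backgrounds 4.64% and 1.92%). Of the 18 fits without a library, 13 kept Car2 in Space, 5 kept it in Ground and 13 kept Car1. Of 6 erythroid iron genes none was called between whole groups, and Abcb10, Glrx5 and Snx3 were called higher in Xist-low libraries (0.96, 0.21 and 0.24), beside 17.7% of all genes. Among Xist-high libraries Abcb10, a mitochondrial transporter, was lower than in BDF1 in Space (-0.40) and in Ground (-0.62), Slc25a38, a mitochondrial glycine carrier, was lower in Ground (-0.60) and Snx3, the most abundant of the list (59.9 to 93.1 CPM), was higher in Space (0.33), where the backgrounds were 11.9% in Space and 15.2% in Ground. The Space calls of Abcb10 and Snx3 passed in 15 and 14 of the 18 fits without a library.

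Markers of other blood cells and of dividing cells were summed beside the globins. The globins were called higher in the offspring groups than in BDF1 among Xist-high libraries. In those libraries the summed level of 10 dividing-cell genes was 10.1 to 71.9 CPM in Space, 25.6 to 41.9 in Ground and 3.41 to 3.85 in BDF1. Of the 8 that were tested there, 7 were called higher in each comparison, beside 6.43% of all genes in Space and 7.86% in Ground, Mki67 (0 to 29.5 CPM over the 18 libraries) by 5.42 ± 0.832 in Space and by 5.41 ± 0.831 in Ground on the log2 scale. All 7 tested in the class model were called lower in Xist-low libraries, beside 18.2% of all genes. Over whole groups 2 were called higher against BDF1 (2.34% of all genes in Space and 1.76% in Ground), Mki67 and Cdk1 in Space and Mki67 and Top2a in Ground. Of the 18 fits without a library, these passed in 9 and 7 in Space and in 8 and 4 in Ground. The 10 platelet genes summed to 4.08 to 6.36, 3.66 to 6.35 and 3.31 to 3.96 CPM in the Xist-high Space, Ground and BDF1 libraries, and 1 of 3 tested, the chemokine gene Ppbp, was called higher in each offspring group (2.81 and 2.60), in 8 and 6 of the 18 fits without a library. The 13 neutrophil genes, led by Csf3r, summed to 5.46 to 8.25, 4.78 to 5.38 and 1.04 to 2.51 CPM, and 1 of 4 tested, S100a9, was called higher in Space (2.09), in 12 of those 18 fits. The 13 lymphocyte genes, led by Ighm, summed to 16.0 to 19.9, 12.9 to 18.8 and 8.32 to 14.2 CPM, with none of 8 called among Xist-high libraries. In the class model 5 of 6 lymphocyte genes were called (35.9% of all genes), 4 of them lower in Xist-low libraries (18.2% of all genes). In bulk liver these lists do not separate cells of the circulation from cells of the tissue, perfusion is not described in the sources used here, and the part of residual blood in the globin levels was not tested.

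Genes of red cell clearance were measured as well. Of 11 genes for the uptake and breakdown of hemoglobin and heme, Hpx (hemopexin) was the most abundant at 2362 to 6560 CPM, and 1 was called higher against BDF1 in each offspring group (2.34% and 1.76% of all genes). This was Cd163, the macrophage receptor for haptoglobin-hemoglobin complexes, with 0.94 ± 0.240 in Space and 1.46 ± 0.241 in Ground (log2, edgeR adjusted p = 0.0371 and 0.00514), called in 12 and 18 of the 18 fits without a library. Among Xist-high libraries (6.43% and 7.86% of all genes higher) Cd163 was again called in each (1.22 and 1.52, in 15 and 18 of those fits), and the iron exporter gene Slc40a1 was called higher in Ground (1.14). In the class model Blvrb was called higher and Slc40a1 lower in Xist-low libraries (0.74 and -0.50), beside 17.7% of all genes higher and 18.2% lower. The 10 Kupffer cell genes, led by Clec4f, summed to 192 to 262 CPM in Xist-high Space, 172 to 262 in Xist-high Ground and 97.1 to 205 in Xist-high BDF1 libraries. Of these Clec4f and Spic were called higher in Space (0.95 and 1.96) and lower in Xist-low libraries (-0.51 and -0.99), and none was called in Ground. The Clec4f calls passed in 11 and 10 of the 18 fits without a library and those of Spic in 18 and 8. Of 9 hepatocyte genes, Apoa1 was called higher over whole groups (1.01 in Space and 0.94 in Ground, in 11 and 5 of those fits), and 4 in Space and 5 in Ground were called higher among Xist-high libraries, Alb by 1.75 and 2.04. In the class model Pck1 was called higher and Alb and Apoa2 lower in Xist-low libraries (0.97, -1.58 and -0.46), the call of Apoa2 in 6 of those fits.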

How the data were processed

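Gene counts of 18 mouse liver libraries were used as deposited. Per the labels, the authors' processing notes name bcl2fastq 2.20, cutadapt 4.6, HISAT2 2.2.1, HTSeq 2.0.2 and the mm10 genome, and how reads that fit several genes were counted is not given in the sources used here. Libraries in a group came from separate animals by their labels. Low counts were filtered with edgeR 4.0.16 (filterByExpr), TMM factors were computed, and the quasi-likelihood test was fitted to all genes in R 4.3.3 with Benjamini-Hochberg adjustment (adjusted p under 0.05, two-sided). The models were group alone, group with Xist class, and their interaction, which passed 13356 genes and gave the within-class contrasts. DESeq2 1.42.0 was an alternative, with other scalings, no filter, summed globin copies, a replicate block and libraries left out, which for genes of the lists was added after the data were seen. Log2 CPM used a prior count of 2, and correlations used 100000 permutations in scipy 1.17.1. In simulated counts of 12847 genes the script recovered 69.5% of 2-fold and 94.5% of 4-fold changes for Space against BDF1, and 72% of 4-fold changes for the interaction in Space.

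Named genes were the 6 members, the 5 other genes of mean CPM at least 1 most correlated with Hbb-bs, Alas2 and Slc4a1, and, from the marker lists, genes past the test and the most abundant gene, with a few of them left unreported here. Members and lists were chosen with earlier results of these data known. Of the 32285 gene identifiers, 32235 matched GENCODE M21. The replicate numbers were checked for pairing: the deviations of 18 same-numbered pairs correlated at 0.231 to 0.654, but with a median of -0.0461 after centring within Xist class, which the numbers share.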

Additional observations from a re-analysis of the deposited data

Results flagged for a closer look

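Among the 6 Space livers, replicate 4 stood apart for 3 globin genes. Its gap to the next library, as a share of the group's range, was 0.739 for Hbb-bs, 0.7 for Hbb-bt and 0.681 for Hba-a1, above the 95% critical value of Dixon's test for 6 samples. Among the 6 Ground livers, replicate 5 stood apart for Slc4a1 (0.859), on 27 counts. These 4 sets came from 18 examined, where chance alone would give about 0.9 if the values were normally distributed. The gaps were taken on CPM, and gaps on the log2 scale of the fits were not tested. A long upper tail of CPM therefore cannot be told apart here from a library that stands apart. The globin genes rise and fall together, so their flags are not independent. The cause was not tested.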

How the results depend on the processing

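The Alas2 class difference stayed called under every alternative run, and the globin calls among Xist-high libraries stayed at 4 in Space and in Ground with DESeq2 (15.9% and 18.1% of all genes called), DESeq2 size factors (12.1% and 15.3%) and total counts (37.3% and 45.9%). The replicate block left 0 members called in each whole-group comparison. Members called changed as follows. Fitting Xist-low libraries alone gave 1 in Space and 1 in Ground against BDF1 (8.56% and 4.4% of all genes called), fitting Xist-high libraries alone gave 2 and 1 (4.39% and 6.89%), and Xist class as a covariate gave 1 in Ground (11.2%). Without the filter the class comparison gave 2 (20.8%), the class within BDF1 2 (7.81%), within Space 2 (12.4%) and within Ground 4 (10.4%), and the interactions 3 and 3 (2.28% and 2.08%). DESeq2 gave 2 and 3 interactions (6.36% and 5.86%), and total counts gave 3 in Ground (11.2%). Summing the globin copies left 2 features called among Xist-high libraries in Space and in Ground (11.9% and 15.2%), since fewer features are then tested. For the class within Ground the summing left 1 feature called (18.3%), where the main fit had called Hbb-bt and Alas2.

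Leaving out Space replicate 4 and Ground replicate 5, chosen after seeing the data, gave 1 among Xist-low libraries in Space (6.96%), 1 in Ground (4.03%), 2 for the class within BDF1 (18.8%) and 1 within Ground (16.3%). It turned Hbb-bs between classes to 0.00022 and Alas2 to -0.93 and -0.24 in the interactions and to -0.093 in Xist-high Space. Total counts turned the Alas2 interaction in Space to -0.16.

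Among Xist-low libraries alone the globin differences from BDF1 reversed, for Hba-a1, Hba-a2, Hbb-bs and Hbb-bt to -0.21, -0.046, -0.23 and -0.28 in Space and -0.45, -0.15, -0.61 and -0.76 in Ground, and among Xist-high libraries alone Hbb-bt between Space and Ground was -0.058.

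With 1 library left out, members called ranged from 0 to 5 among Xist-high libraries in Space and 0 to 6 in Ground, 0 to 2 and 0 to 4 in the interactions, and 1 to 2, 1 to 4 and 1 to 5 for the class within BDF1, Space and Ground. Space minus Ground then ran from -0.33 to 0.84 for Hba-a1, -0.20 to 0.84 for Hba-a2, -0.37 to 0.88 for Hbb-bs, -0.52 to 0.81 for Hbb-bt and -0.44 to 0.049 for Alas2, the negative globin values coming without Space replicate 4. Alas2 ran from -0.93 to 0.53 and -0.24 to 1.00 in the interactions and -0.094 to 1.37 in Xist-high Space. Causes were not tested. Slc4a1, with 80 counts, is limited by depth.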
